A study of Mus musculus with 8 samples.

Results

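The 9 genes described here mark B cells, their follicles and their antibody-secreting descendants, and were followed in 4T1 tumors: *Ms4a1*, *Cd79a*, *Cd79b*, *Blk*, *Cr2*, *Pax5*, *Fcer2a*, *Cxcr5* and *Jchain*. They were listed by name with earlier results of these data known, so their counts below are descriptions of a chosen list, and each of the 9 was found among the 25006 gene identifiers of the counts. 4T1 is a mammary carcinoma line of Balb/c origin used to model triple-negative disease. The cells were injected into the fat pad of NSG or Balb/c mice and the tumors were harvested after at most 20 days. Wild-type tumors came from the parental 4T1 line or from 4T1 with stable vCas9, and knockout tumors came from CRISPR/Cas9 clone 54 or clone 69, made to lack CD95, the death receptor encoded by *Fas*. Host and CD95 status thus made 4 groups with 2 libraries each, and every line was implanted in both hosts. Knockout lines are single clones while no label calls the parental or vCas9 line a clone, so that clonal origin and CD95 status cannot be told apart. The labels give no age of the mice and do not say whether a library held 1 tumor or a pool, so that p-values measure only the spread between these libraries.

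B cells recognise antigen through a surface immunoglobulin that signals through the CD79A and CD79B chains and Src-family kinases such as BLK. The receptor is tuned by co-receptors, among them CD21, the complement receptor encoded by *Cr2*. CXCR5 draws B cells and follicular helper T cells into follicles, where follicular dendritic cells hold antigen, and plasma cells assemble IgM and IgA polymers with the joining chain encoded by *Jchain*. NSG mice lack mature B, T and NK cells, whereas Balb/c mice have them, and B cells and plasma cells are known to enter mammary tumors in variable numbers.

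Total counts per library ranged from 8680070 to 19655945. At this depth 3 counts, the limit that a count of 0 allows, correspond to 0.159 to 0.321 CPM (CPM being scaled to the TMM-adjusted library total). *Fas* itself was read in every library, at 33.9 and 22.6 CPM in wild-type NSG tumors, 29.5 and 12.9 CPM in knockout NSG tumors, 51.6 and 46.9 CPM in wild-type Balb/c tumors and 27.1 and 33.7 CPM in knockout Balb/c tumors, and the log2 fold change of knockout against wild type was -0.42 in NSG and -0.70 in Balb/c (adjusted p-values 0.628 and 0.225 by edgeR), so the knockout status rests on the labels. *Il2rg*, the receptor chain gene inactivated in NSG mice, was at 5.82 to 7.49 CPM in NSG and 98.3 to 157 CPM in Balb/c libraries. The keratin gene *Krt8*, an epithelial marker of the carcinoma cells, was also present throughout, from 156 CPM in the Balb/c clone 54 library to 1283 CPM in the Balb/c clone 69 library. Among the Balb/c libraries the parental one stood apart in the 9 genes, though not in every other B cell gene listed below. The calls for the 9 genes in the host comparisons and in the Balb/c knockout comparison are given with and without it. In bulk RNA, fewer cells of a type and less RNA per cell cannot be told apart.

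RefSeq (GRCm38.p6) gave windows of 250 bases before the start for 5 of the 9 genes, *Cd79a*, *Cr2*, *Fcer2a*, *Jchain* and *Pax5*, with 7 windows in all. No window held the octamer ATGCAAAT or the EBF-type motif (TCCC and GGGA with any 2 bases between them) on either strand, which occurred in 1.60% and 0.779% of all 32851 windows. The ETS-type motif AGGAAGTG, added after the windows were read, occurred in 1 of the 7 windows, that of *Cd79a*, and in 3.14% of all windows. It is shown because *Cd79a* is the receptor chain that passed the test in both host comparisons below. The 30 bases at chr7:24897431-24897460, plus strand, hold the match, in capitals, at 55 to 48 bases before the RefSeq start, and lie inside the first exon of the GENCODE M21 model, which starts at 24897381.
Cd79a: cacggctgaacAGGAAGTGaggcggagttt

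Growth of each line in both hosts sets immunodeficient beside immunocompetent mice. The hosts are also different strains, so that strain and immune competence cannot be told apart. In CD95 wild-type tumors, 9 of the 9 genes were higher in Balb/c than in NSG by edgeR's quasi-likelihood test, with adjusted p-values from 0.00262 to 0.0206, beside 15.3% of all 15310 genes tested (16.2% were lower and 31.5% passed in either direction). Their libraries did not overlap between the hosts for any of the 9, as for 35.4% of all genes in that direction and 41% in the other. In CD95 knockout tumors, 2 of the 9, *Ms4a1* and *Cd79a*, were higher in Balb/c, beside 15.7% of all genes (15.4% lower, 31.1% in either direction), and 3 had an unadjusted p-value under 0.05, as did 6637 of the 15310 genes. Libraries did not overlap for 5 of the 9, *Ms4a1*, *Cd79a*, *Cd79b*, *Blk* and *Jchain*, each higher in Balb/c, as for 32.4% of all genes and 31.9% in the other direction. In all, 6 of the genes had fewer than 10 counts in every NSG library and entered the test only through their Balb/c libraries. *Cd79b*, which reached 10 counts in the NSG vCas9 library alone, also needed its Balb/c libraries to enter. The counts of genes higher in Balb/c thus had a direction built in. The plot of levels by library shows low levels in NSG, a peak in the Balb/c parental tumor and intermediate or low levels elsewhere.

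**Figure D1:**
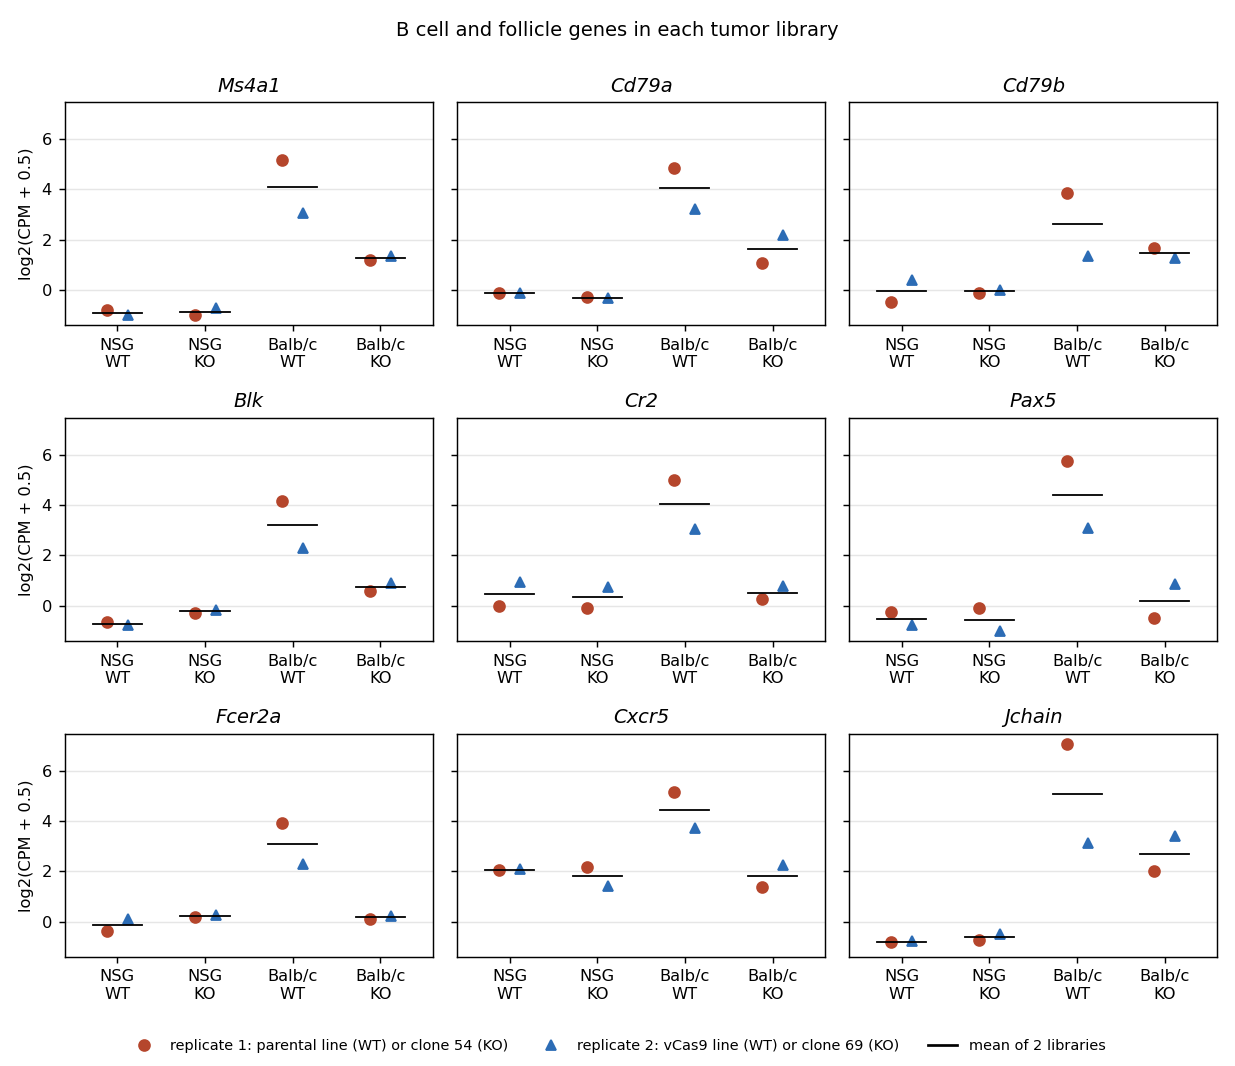
Level of each of the 9 genes, as log2(CPM + 0.5), in the 8 libraries by host and CD95 status; circles are the parental line or clone 54, triangles the vCas9 line or clone 69, and lines the mean of 2 libraries. The Balb/c parental library is the highest point in every panel, at 133 CPM for Jchain and 14.0 CPM for Cd79b.

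*Cd79a* (ENSMUSG00000003379; GRCm38 chromosome 7, 24897381 to 24902197, protein-coding) encodes the Ig-alpha signalling chain. It was at 0.416 and 0.414 CPM in wild-type NSG tumors, 0.321 and 0.298 CPM in knockout NSG tumors, 28.3 and 8.87 CPM in wild-type Balb/c tumors and 1.59 and 4.01 CPM in knockout Balb/c tumors. Wild-type Balb/c tumors lay above knockout Balb/c tumors and both lay above the NSG libraries, with no overlap. The wild-type host log2 fold change was 5.45 (SE 0.76, with an adjusted p-value of 0.00343 by edgeR), and 4.38 (adjusted p-value 0.0144) without the Balb/c parental library. In knockout tumors, where the NSG libraries held 3 counts each, *Cd79a* was higher in Balb/c (adjusted p-value 0.0257 by edgeR), with a ratio of pooled counts, scaled to library size, of 8.43 (95% exact counting interval 3.72 to 23.6). Counting intervals of pooled ratios, here and below, cover counting error only and leave out the spread between libraries. Without the Balb/c clone 69 library the fitted log2 fold change was 2.33 (adjusted p-value 0.0916) in place of 3.12, and without the NSG clone 54 or clone 69 library the adjusted p-value was 0.0991 or 0.128.

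*Cd79b* (ENSMUSG00000040592; chromosome 11, 106311341 to 106314762), the Ig-beta partner chain, was at 0.208 and 0.828 CPM in wild-type NSG tumors, 0.428 and 0.497 CPM in knockout NSG tumors, 14.0 and 2.08 CPM in wild-type Balb/c tumors and 2.65 and 1.90 CPM in knockout Balb/c tumors. The Balb/c vCas9 library fell between the 2 knockout Balb/c libraries, and only the parental library was clearly above them. The wild-type host log2 fold change was 3.97 (SE 0.97, with an adjusted p-value of 0.0206 by edgeR). It was 2.02 (adjusted p-value 0.134) without the Balb/c parental library, and 3.49 (adjusted p-value 0.0947) under the replicate block by cell line. The knockout host log2 fold change of 2.28 (SE 1.03) had an edgeR adjusted p-value of 0.128.

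*Blk* (ENSMUSG00000014453; chromosome 14, 63372836 to 63417037), the B lymphoid Src-family kinase, was at 0.139 and 0.0828 CPM in wild-type NSG tumors, 0.321 and 0.398 CPM in knockout NSG tumors, 17.3 and 4.37 CPM in wild-type Balb/c tumors and 1.01 and 1.39 CPM in knockout Balb/c tumors. Its groups were ordered like those of *Cd79a* in Balb/c, with no overlap between wild-type Balb/c tumors, knockout Balb/c tumors and NSG. With 2 and 1 counts in wild-type NSG tumors, *Blk* was higher in Balb/c among wild-type tumors (adjusted p-value 0.0032 by edgeR), with a pooled ratio of 90.1 (counting interval 30.5 to 439). The fitted log2 fold change moved from 6.47 to 5.16 without the parental one (adjusted p-value 0.0106). The host difference in knockout tumors, 1.69 (SE 0.82) on the log2 scale, had an adjusted p-value of 0.155.

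Among the surface co-receptors, *Ms4a1* (ENSMUSG00000024673; chromosome 19, 11249675 to 11266241) encodes CD20, a membrane protein of mature B cells that is absent from plasma cells. NSG tumors had 1 and 0 counts in wild type and 0 and 1 counts in knockout. Wild-type Balb/c tumors were at 35.3 and 7.76 CPM and knockout Balb/c tumors at 1.80 and 2.04 CPM, with no overlap between the groups. *Ms4a1* was higher in Balb/c than in NSG among wild-type tumors (adjusted p-value 0.00262 by edgeR), with a pooled ratio of 533 whose counting interval, 95.3 to 21100, reflects the single NSG count. It was also higher among knockout tumors (adjusted p-value 0.0241), with a ratio of 36.9 (counting interval 6.38 to 1480). That call was lost without either knockout library of either host, with adjusted p-values from 0.0554 to 0.108. Without the Balb/c parental library its wild-type adjusted p-value was 0.00724, with a fitted log2 fold change of 7.37 in place of 8.83.

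*Cr2* (ENSMUSG00000026616; chromosome 1, 195136811 to 195176716) encodes the complement receptor CD21 of B cells and follicular dendritic cells. It was at 0.485 and 1.41 CPM in wild-type NSG tumors, 0.428 and 1.19 CPM in knockout NSG tumors, 31.4 and 7.83 CPM in wild-type Balb/c tumors and 0.688 and 1.24 CPM in knockout Balb/c tumors. The knockout Balb/c libraries lay within the NSG range, and only wild-type Balb/c tumors were above it. The wild-type host log2 fold change was 4.39 (SE 0.83, with an adjusted p-value of 0.00891 by edgeR), 3.05 (adjusted p-value 0.0536) without the Balb/c parental library and 3.78 (adjusted p-value 0.0765) without the NSG parental library. In knockout tumors it was 0.21 (SE 0.93, adjusted p-value 0.888).

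*Fcer2a* (ENSMUSG00000005540; chromosome 8, 3681737 to 3694175) encodes CD23, the low-affinity IgE receptor of follicular B cells. It was at 0.277 and 0.580 CPM in wild-type NSG tumors, 0.642 and 0.696 CPM in knockout NSG tumors, 14.4 and 4.44 CPM in wild-type Balb/c tumors and 0.582 and 0.657 CPM in knockout Balb/c tumors. Knockout Balb/c tumors overlapped knockout NSG tumors, as for *Cr2*, and wild-type Balb/c tumors stood above the rest. The wild-type host log2 fold change was 4.45 (SE 0.69, with an adjusted p-value of 0.00492 by edgeR), and 3.36 (adjusted p-value 0.0275) without the Balb/c parental library. It was 3.99 (adjusted p-value 0.0538) without the NSG parental library. With 11 and 9 counts in knockout Balb/c tumors, no fold is given for knockout tumors (adjusted p-value 0.921).

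*Pax5* (ENSMUSG00000014030; chromosome 4, 44524757 to 44710487) encodes the transcription factor that commits and keeps cells in the B lineage and is shut off in plasma cells. It had 5 and 1 counts in wild-type NSG tumors, 4 and 0 in knockout NSG tumors, 629 and 115 in wild-type Balb/c tumors and 4 and 18 in knockout Balb/c tumors. In CPM, wild-type Balb/c tumors were at 53.4 and 7.97 and knockout Balb/c tumors at 0.212 and 1.31. The clone 54 tumor in Balb/c was thus within the NSG range, which reached 0.428 CPM. The wild-type host log2 fold change was 7.04 (SE 1.33, with an adjusted p-value of 0.00903 by edgeR), and 5.10 (adjusted p-value 0.0498) without the Balb/c parental library. The call was lost without the NSG parental library (adjusted p-value 0.0703) or the NSG vCas9 library (0.0721).

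*Cxcr5* (ENSMUSG00000047880; chromosome 9, 44511787 to 44561877), the follicle-homing receptor of B cells and follicular helper T cells, differed from the other 8 in being read well above background in NSG. It was at 3.6 and 3.73 CPM in wild-type NSG tumors, 3.96 and 2.19 CPM in knockout NSG tumors, 34.9 and 12.5 CPM in wild-type Balb/c tumors and 2.06 and 4.23 CPM in knockout Balb/c tumors. The knockout Balb/c libraries bracketed the NSG libraries. The wild-type host log2 fold change was 2.69 (SE 0.56, with an adjusted p-value of 0.0123 by edgeR), against 1.77 (adjusted p-value 0.0772) without the Balb/c parental library and 2.52 (adjusted p-value 0.0506) under the replicate block by cell line. In knockout tumors it was 0.02 (SE 0.58, adjusted p-value 0.983).

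*Jchain* (ENSMUSG00000067149; chromosome 5, 88519809 to 88527891) encodes the joining chain of secreted IgM and IgA. NSG tumors had 1 and 1 counts in wild type and 1 and 2 in knockout. Wild-type Balb/c tumors were at 133 and 8.11 CPM and knockout Balb/c tumors at 3.49 and 10.1 CPM, so that the clone 69 library lay above the vCas9 library and the groups overlapped. *Jchain* was higher in Balb/c than in NSG among wild-type tumors (adjusted p-value 0.00798 by edgeR), with a pooled ratio of 849 (counting interval 235 to 7020). Of the 1678 pooled Balb/c counts 1561 came from the parental library, a spread that the interval leaves out. The fitted log2 fold change was 9.69, and 6.57 without the Balb/c parental library. The call was lost without the NSG parental library (adjusted p-value 0.0749) or the NSG vCas9 library (0.0651). Among knockout tumors the pooled ratio was 40.7 (counting interval 13.7 to 199) with an adjusted p-value of 0.0557. That p-value was 0.00852 under the replicate block by cell line, 0.00712 without the filter on low counts and 5.67e-05 by DESeq2. With only the groups compared it was 0.0184, but it stayed above the threshold with RLE factors (0.0552) and total-count scaling (0.0542). The fitted log2 fold change, 5.36 with every library, ran from 4.42 to 5.92 on leaving out 1 library.

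The counts called among the 9 and among all genes both moved when a library was left out. In wild-type tumors 6 of the 9 passed without the Balb/c parental library, 3 without the NSG parental library (*Ms4a1*, *Cd79a* and *Blk*) and 5 without the NSG vCas9 library (these 3, *Cr2* and *Fcer2a*). All-gene calls in these fits were 1289, 858 and 1270, against 4825 with every library. Under the replicate block by cell line 7 of the 9 passed, with 2073 genes called in all. In knockout tumors 0 passed without the NSG clone 54 library, without the NSG clone 69 library or without the Balb/c clone 69 library, 1 passed without the Balb/c clone 54 library and 5 without the Balb/c vCas9 library. In the fit without the Balb/c parental library 3 passed, *Ms4a1*, *Cd79a* and *Jchain*. All-gene calls in these fits were 3302, 2461, 4640, 4609, 3884 and 3908, in that order, against 4757 with every library. With the block, 3 of the 9 and 2878 genes in all passed in knockout tumors.

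The next comparison asked whether CD95 loss in the tumor cells changed these transcripts in immunocompetent hosts. In Balb/c, 0 of the 9 genes passed the edgeR threshold, beside 0.176% of all genes (0.131% lower, 0.0457% higher). An unadjusted p-value under 0.05 was seen for 8 of the 9 and for 4729 genes in all. The fitted values were lower in knockout for 9 of 9, with a median log2 fold change of -3.38 against 0.06 over all genes tested. *Pax5* and *Fcer2a* had 10 or more counts in both libraries of a group only in wild-type Balb/c tumors, so that their direction was built in by the filter. For 7 of the 9 both knockout libraries were below both wild-type libraries, as for 29.3% of all genes (32.9% in the other direction), the exceptions being *Cd79b* and *Jchain*.

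The log2 fold change of knockout against wild type in Balb/c was -5.40 for *Pax5* (SE 1.15, with an adjusted p-value of 0.0569 by edgeR). Its direction, like that of *Fcer2a*, was built in by the filter, and its value ran from -7.10 to -3.43 on leaving out 1 library. *Cr2* was at -4.36 (SE 0.82), *Fcer2a* at -3.91 (SE 0.65), *Ms4a1* at -3.48 (SE 0.71), *Blk* at -3.18 (SE 0.65) and *Cxcr5* at -2.92 (SE 0.57), each with an adjusted p-value of 0.0564. *Cd79a* was at -2.74 (SE 0.62, adjusted p-value 0.057). The remaining values were -3.38 for *Jchain* (SE 1.08, adjusted p-value 0.0907) and -1.81 for *Cd79b* (SE 0.83, adjusted p-value 0.179). DESeq2 called 8 of the 9, as did edgeR without the filter on low counts, *Cd79b* being the exception both times, and DESeq2 called 2144 genes in all. Without the clone 69 library 7 of the 9 passed, with 3886 genes called in all, and without the vCas9 library 4 passed, with 24 genes called in all. Without the filter 1774 genes were called in all.

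Without the Balb/c parental library, 0 of the 9 passed, and the values for *Pax5*, *Cr2*, *Fcer2a*, *Ms4a1*, *Cxcr5*, *Blk* and *Cd79a* ran from -3.43 to -1.67. *Jchain* was then at -0.26 (adjusted p-value 0.846 by edgeR) and *Cd79b* at 0.13 (adjusted p-value 0.935). The plot of fitted changes places the 3 comparisons side by side.

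**Figure D2:**
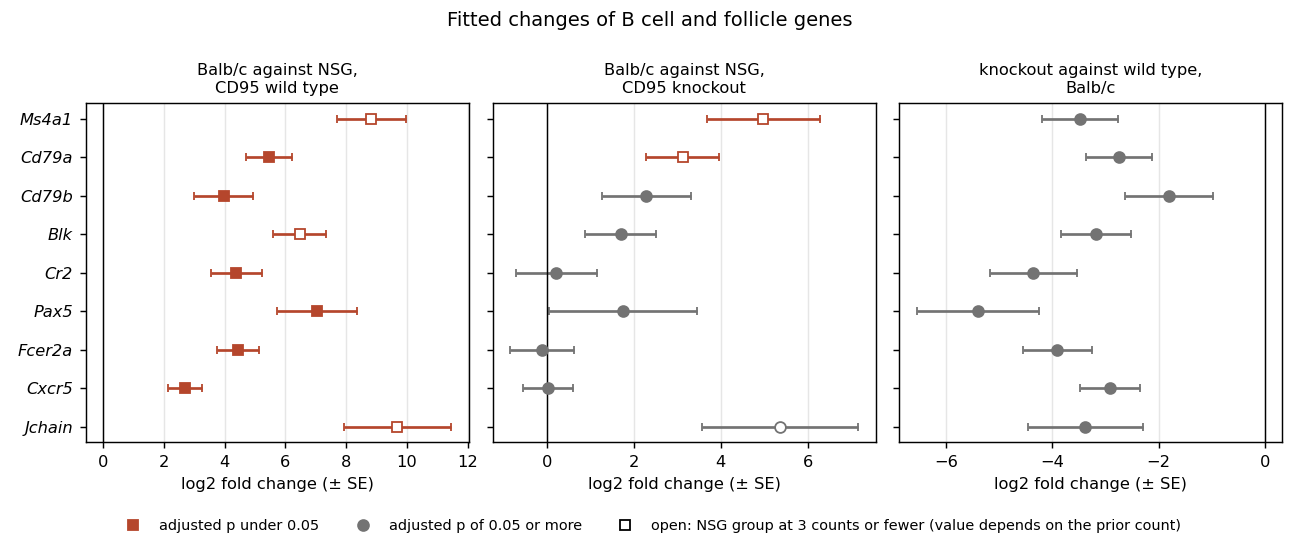
Fitted log2 fold change with its standard error for the 9 genes in 3 comparisons, each panel on its own axis; squares have an edgeR adjusted p-value under 0.05, and open symbols mark genes whose NSG group held 3 counts or fewer in each library, where the value depends on the prior count. In the right panel the 9 values lie from -5.40 for Pax5 to -1.81 for Cd79b, none past the threshold; the left and right panels share the Balb/c wild-type libraries.

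In NSG tumors 0 of the 9 genes passed the edgeR threshold for knockout against wild type, beside 0.0131% of all genes. DESeq2 also called 0 of the 9, against 340 genes in all. An unadjusted p-value under 0.05 was reached by 0 of the 9 and by 2148 genes in all. Of all genes, 26.7% had non-overlapping libraries with knockout higher and 25.8% with knockout lower, and no direction is read for the 8 genes other than *Cxcr5*, which held at most 17 counts in an NSG library. Only *Cxcr5* was read often enough for a fold, with a log2 fold change of -0.26 (SE 0.58, adjusted p-value 0.863). The summed level of the 9 genes was 5.61 and 7.21 CPM in wild-type NSG tumors and 6.63 and 5.57 CPM in knockout NSG tumors, of which *Cxcr5* made up 2.19 to 3.96 CPM. In Balb/c it was 361.7 and 64.0 CPM in wild type and 14.1 and 26.9 CPM in knockout.

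The difference of the knockout effects in Balb/c and NSG was tested in the same model. By edgeR 0 of the 9 genes passed, beside 0% of all genes, and the smallest adjusted p-value was 0.0922, for *Fcer2a*. *Fcer2a* and *Pax5* passed the filter only through wild-type Balb/c tumors, so that a negative difference was built in for them. *Blk* held at most 4 counts in an NSG library, so that its knockout effect there was poorly measured. An unadjusted p-value under 0.05 was seen for 4 of the 9 and for 3452 genes in all. The difference for *Cxcr5* was -2.67 (SE 0.80, adjusted p-value 0.13). DESeq2 called 4, *Blk*, *Cr2*, *Fcer2a* and *Cxcr5*, and edgeR without the filter on low counts called the same 4, out of 974 and 674 genes called in all. Without the Balb/c clone 69 library edgeR called 2, *Fcer2a* and *Cxcr5*, out of 2370.

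The spread within the Balb/c wild-type group was wide for these genes. Its libraries came from different lines, and only the parental line is described without Cas9. Line, Cas9 and tumor cannot be told apart in this spread. The parental library exceeded the vCas9 library for 9 of 9, by a CPM ratio of 2.78 for *Cxcr5* (95% exact counting interval 2.33 to 3.33) up to 16.4 for *Jchain* (13.5 to 19.9), with a median of 4.01. The corresponding ratio was 6.74 for *Cd79b*, 6.70 for *Pax5*, 4.54 for *Ms4a1*, 4.01 for *Cr2*, 3.97 for *Blk*, 3.26 for *Fcer2a* and 3.19 for *Cd79a*. The 12 T cell markers had ratios from 0.539 for *Cd8a* to 2.69 for *Cd4*, with a median of 1.41 in the same 2 libraries. The 7 plasmacytoid dendritic cell markers had ratios from 1.09 to 3.68 with a median of 2.62, and 7 of 7 intervals lay above 1. The 18 other B cell receptor and co-receptor genes ran from 0.377 for *Ly6d* to 6.13 for *Fcmr* with a median of 1.52, with 10 intervals above 1 and 3 below. *Krt8* was at 227 CPM in the parental library and 628 CPM in the vCas9 library, and its part in these ratios was not tested. The intervals cover counting error only, since reads without molecular identifiers are not independent molecules.

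Between the knockout Balb/c clones 0 of the 9 intervals lay above 1 and 4 lay below it. The clone 54 library was lower than the clone 69 library for *Pax5* (ratio 0.161, interval 0.0397 to 0.489), *Jchain* (0.344, 0.253 to 0.465), *Cd79a* (0.396, 0.245 to 0.628) and *Cxcr5* (0.488, 0.316 to 0.744). For the other 5 genes the interval included 1, and *Cd79b* had the highest ratio, 1.39. *Krt8* was at 156 CPM in the clone 54 library and 1283 CPM in the clone 69 library, and its part in these ratios was not tested. Clone and tumor cannot be told apart here.

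**Figure D3:**
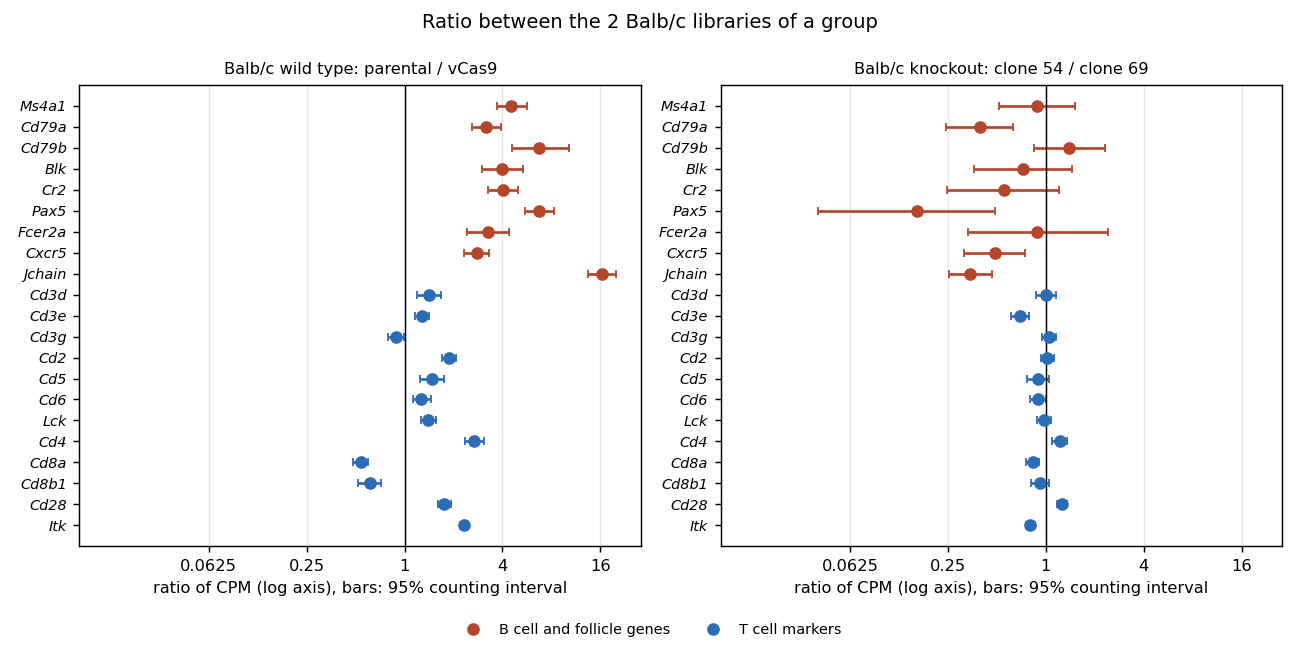
CPM ratio between the 2 libraries of each Balb/c group on a log axis, with 95% exact counting intervals, for the 9 B cell and follicle genes and 12 T cell markers. In wild type the 9 genes lie between 2.78 and 16.4 and the T cell markers between 0.539 and 2.69; plasmacytoid dendritic cell markers, not drawn, reach 3.68; in knockout 4 of the 9 have intervals below 1.

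The balance among the genes also varied between Balb/c libraries. The count ratio of *Jchain* to *Ms4a1*, a plasma cell gene over a mature B cell gene, was 3.76 (95% exact counting interval 3.37 to 4.2) in the parental library and 1.04 (0.799 to 1.37) in the vCas9 library. It was 1.94 (1.26 to 3.03) for clone 54 and 4.96 (3.29 to 7.74) for clone 69. The ratio of *Pax5* to *Ms4a1* was 1.52 (1.34 to 1.72) and 1.03 (0.785 to 1.34) in the wild-type libraries, against 0.118 (0.0303 to 0.330) for clone 54 and 0.643 (0.335 to 1.20) for clone 69. *Cd79b* went the other way relative to *Ms4a1*, with 0.398 (0.33 to 0.477) in the parental and 0.268 (0.173 to 0.404) in the vCas9 library. Its ratio was 1.47 (0.932 to 2.34) for clone 54 and 0.929 (0.523 to 1.64) for clone 69. *Blk* kept to a narrower range relative to *Ms4a1*, from 0.492 to 0.679. These ratios compare single libraries and have no replicate test.

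Per length of transcript, on the TPM scale from GENCODE M21 exon lengths, *Jchain* had a mean of 79.9 TPM in wild-type Balb/c tumors, from 151 TPM in the parental and 9.06 TPM in the vCas9 library. It was the highest of the 9 in the former only, since *Cd79a* (17.1 TPM) and *Cxcr5* (10.6 TPM) exceeded it in the vCas9 library. The means were 36.3 TPM for *Cd79a*, 20.3 TPM for *Cxcr5*, 16.1 TPM for *Cd79b* and 11.5 TPM for *Blk*. *Ms4a1*, *Pax5*, *Fcer2a* and *Cr2* lay between 6.90 and 9.91 TPM. In knockout Balb/c tumors the means were 7.04 TPM for *Jchain*, 5.01 TPM for *Cd79a* and 0.222 TPM for *Pax5*. In wild-type NSG tumors *Cxcr5* had a group mean of 2.98 TPM and the means of the other 8 were under 1 TPM, although *Cd79b* reached 1.5 TPM in the vCas9 library. In the Balb/c parental library the level of *Jchain* was above that of 95.4% of detected genes, and that of *Cr2* above 56.3%.

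Other genes of the B cell programme were then counted from lists of related genes. Beside the host counts of these and later lists stand the shares of all genes tested. In wild-type tumors 15.3% were higher and 16.2% lower in Balb/c, and in knockout tumors 15.7% and 15.4%. Of 17 tested receptor and co-receptor genes, 10 were higher in Balb/c in wild-type tumors and 0 lower, with a median log2 fold change of 1.5 against -0.08 over all genes, and 6 passed without the Balb/c parental library. In knockout tumors 9 were higher and 0 lower. For knockout against wild type in Balb/c 0 of the 17 passed edgeR, 7 had an unadjusted p-value under 0.05, and 8 fitted values were lower and 9 higher, with a median of 0.14. *Cd22*, an inhibitory co-receptor, was at 31.3 and 14.4 CPM in wild-type Balb/c tumors and 45.6 and 20.4 CPM in knockout Balb/c tumors, so that these groups overlapped.

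Of 10 B lineage transcription factors, 7 were higher and 1 lower in wild-type Balb/c tumors, and 3 were higher (*Spib*, *Ikzf3* and *Irf8*) and 2 lower (*Ebf1* and *Bcl11a*) in knockout Balb/c tumors. Without the Balb/c parental library 4 were higher and 0 lower in wild type. For knockout against wild type in Balb/c their median was -0.94, with 8 of 10 fitted lower, 0 called by edgeR and 6 at an unadjusted p-value under 0.05. Of 11 plasma cell genes, 4 were higher in wild type (*Mzb1*, *Irf4*, *Slamf7* and *Ell2*) and 5 in knockout (*Prdm1*, *Irf4*, *Slamf7*, *Edem1* and *Ell2*), and 2 were lower each time, *Sdc1* and *Fkbp11*. *Sdc1* is also an epithelial proteoglycan. *Mzb1*, a chaperone of immunoglobulin assembly, had 0 counts in NSG and was at 14.1 and 1.66 CPM in wild-type Balb/c tumors and 0.952 and 1.02 CPM in knockout Balb/c tumors. Without the Balb/c parental library 2 plasma cell genes were higher, *Irf4* and *Mzb1*, and 0 lower. Knockout against wild type in Balb/c gave plasma cell genes a median of -0.14, with 0 called by edgeR and 3 at an unadjusted p-value under 0.05. Of 7 germinal centre genes tested, 3 were higher (*Bcl6*, *Il21r* and *Basp1*) and 2 lower (*S1pr2* and *Mybl1*) in wild-type Balb/c tumors. In knockout tumors *Il21r* was higher and *Mybl1* lower. Without the parental library 0 of 8 tested passed edgeR.

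Genes of follicles and lymphoid stroma passed in both directions between hosts, as did all genes tested (15.3% higher and 16.2% lower in wild-type tumors). In knockout tumors the all-gene shares were 15.7% and 15.4%. These lists are small, and no direction is read for a list as a whole. Of 10 tested follicle and lymphoid chemokine genes, 4 were higher in wild-type Balb/c tumors (*Ltb*, *Ccr7* and *Ccr6* among them) and 2 lower (*Cxcl13* and *Ltbr*), against 2 higher and 0 lower without the Balb/c parental library. In knockout tumors 4 were higher (*Ltb*, *Ccr7* and *Gpr183* among them) and *Cxcl13* was lower. *Cxcl13*, the ligand of CXCR5, was lower in Balb/c in both genotypes when all 8 libraries were fitted. It was at 5.54 and 8.53 CPM in wild-type NSG tumors, 10.6 and 9.65 CPM in knockout NSG tumors, 1.95 and 2.01 CPM in wild-type Balb/c tumors and 1.38 and 0.438 CPM in knockout Balb/c tumors. The T-zone chemokine gene *Ccl19* had 0 counts in the 4 Balb/c libraries, and *Ccl21a* had 1 count in total there. *Glycam1*, an adhesion ligand of high endothelial venules that mammary epithelium also makes, had 51 counts in the Balb/c parental library and 2, 13 and 2 counts in the other Balb/c libraries. Of the 10 tested follicle and chemokine genes, 0 passed edgeR for knockout against wild type in Balb/c, with 5 at an unadjusted p-value under 0.05.

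Of 7 follicular dendritic cell markers, 1 was higher (*Tnfrsf1a*) and 3 lower (*Mfge8*, *Clu* and *Vcam1*) in Balb/c among wild-type tumors, and 1 was higher (*Fcgr2b*) and 1 lower (*Clu*) among knockout tumors. Among wild-type tumors 0 of the 7 passed without the Balb/c parental library. *Mfge8*, which macrophages also make, was the 1 listed gene to pass for knockout against wild type in Balb/c, where it was higher (adjusted p-value 0.045 by edgeR), and it did not pass without the Balb/c parental library. Of 3 tested high endothelial venule markers, 0 passed among wild-type tumors and *Fut7* was higher in Balb/c among knockout tumors.

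Markers of other immune cells were read in the same libraries. The 12 T cell markers were higher in Balb/c in both genotypes, 12 of 12, with a summed level of 6.31 to 13.1 CPM in NSG, 853 and 569 CPM in wild-type Balb/c tumors and 608 and 631 CPM in knockout Balb/c tumors. For knockout against wild type in Balb/c, 0 of 12 passed edgeR, with 2 at an unadjusted p-value under 0.05, and their median log2 fold change was 0.06, the same as over all genes. *Cd3e* was at 66.0 and 51.4 CPM in wild-type Balb/c tumors and 26.0 and 37.5 CPM in knockout Balb/c tumors. The 8 follicular helper markers, of interest because such T cells also carry CXCR5, summed to 243 and 290 CPM in wild-type Balb/c tumors and 464 and 350 CPM in knockout Balb/c tumors. Of these sums *Maf*, which macrophages also express, made up 102 and 103.5 CPM in wild type and 282 and 118.5 CPM in knockout.

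In the same Balb/c comparison the 7 neutrophil markers summed to 7552 and 5918 CPM in wild type and 519 and 2504 CPM in knockout. The 7 macrophage markers summed to 1881 and 2216 CPM in wild type and 8845 and 3761 CPM in knockout. By edgeR 0 of 7 passed in either list, while 5 neutrophil and 7 macrophage markers had an unadjusted p-value under 0.05. The 7 plasmacytoid dendritic cell markers summed to 225 and 166 CPM in wild type and 229 and 195 CPM in knockout, and *Siglech*, the most selective of them, was at 30.9 and 11.9 CPM against 29.1 and 23.3 CPM. Between hosts, in wild-type and then knockout tumors, the numbers higher and lower in Balb/c were 6 and 1, then 5 and 1, of 7 NK cell markers. They were 5 and 0, then 6 and 0, of 8 follicular helper markers and 4 and 0, then 5 and 1, of 7 plasmacytoid dendritic cell markers. Eosinophil and mast cell markers gave 6 and 3, then 5 and 2, of 10. Macrophage markers gave 1 and 2, then 5 and 0, and neutrophil markers 3 and 0, then 1 and 1, of 7 each. Adipocyte markers gave 0 and 2, then 0 and 4, of 6, and gamma delta T cell markers 1 and 0, then 1 and 1, of 2. The wild-type counts without the Balb/c parental library, higher and lower, were 5 and 0 for NK cell, 3 and 0 for follicular helper, 0 and 0 for plasmacytoid dendritic cell and 5 and 2 for eosinophil and mast cell markers. They were 0 and 0 for macrophage, 1 and 0 for neutrophil, 0 and 0 for adipocyte and 1 and 0 for gamma delta T cell markers, and 12 and 0 for T cell markers. The part of these cells in the values of the 9 genes was not tested.

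**Figure D4:**
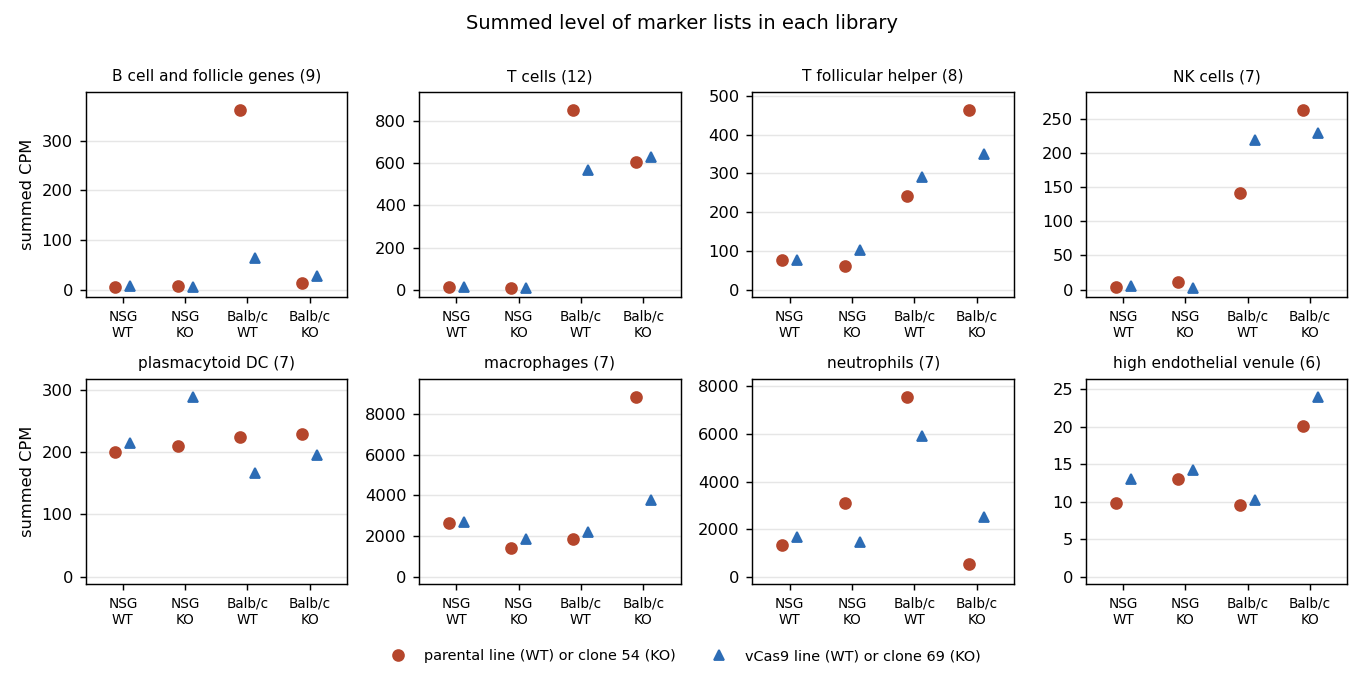
Summed CPM of 8 marker lists in the 8 libraries, with list sizes in brackets and a separate linear axis starting near 0 in each panel. The sum of the 9 B cell and follicle genes is 361.7 CPM in the Balb/c parental library and 64.0 CPM or less in the other 7, whereas T cell markers reach at least 569 CPM in each Balb/c library.

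Pairs of the 9 genes correlated across the 8 libraries with a median Pearson r of 0.93 on the log2(CPM + 0.5) scale, from 0.77 for *Cd79b* and *Cxcr5* to 0.99 for *Ms4a1* and *Cd79a*. The points share host, library and depth, and the value is a description only. Among the genes most like the mean of the 9, over the same 8 libraries, were *Pou2af1*, a B cell transcriptional co-activator (r of 0.997), *Fcmr*, the receptor for IgM (0.993), *Bach2* (0.985), *Dtx1* (0.985), *AW549877* (0.984), *Nemp2* (0.982), *Csnk1g3* (0.981), *Eipr1* (0.981) and *Scml4* (0.98). Several of them spanned a far smaller range, *Csnk1g3* being at 48.7 to 91.2 CPM over all libraries. The single most similar gene was *Eipr1* for *Ms4a1* and *Blk*, *Fcrl1* for *Pax5*, *Dtx1* for *Fcer2a*, *Btla* for *Cd79b*, *Cnot6l* for *Cd79a*, *Cdc40* for *Cr2*, *B3gnt5* for *Cxcr5* and *Nsg2* for *Jchain*, with r between 0.979 and 0.995.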

How the data were processed

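The submitters sequenced 8 libraries of tumor RNA. Each deposited file holds whole-number counts for 1 library, by Ensembl gene identifier. The submitters' processing notes name cutadapt 1.13, STAR, HTSeq 0.6.1p1 and DESeq2, and the builds mm10 and hg19, without roles; strand setting and annotation are not given in the sources used here, so overlapping genes are uncertain. Symbols came from a table of gene names, and positions and exon lengths from GENCODE M21 (GRCm38).

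The test was edgeR 4.0.16 under R 4.3.3 (TMM, filterByExpr with a minimum count of 10, estimateDisp, glmQLFit, glmQLFTest) in one model of 4 group means over all 8 libraries, which kept 15310 genes and left 4 residual degrees of freedom. P-values were adjusted by Benjamini and Hochberg over all tested genes with a threshold of 0.05. Standard errors were taken from the log2 fold change and the F statistic. Where both NSG libraries of a group held 3 counts or fewer, the ratio of pooled counts over effective library sizes is given with an exact conditional interval. That interval covers counting error only and leaves out the spread between libraries. Folds were given where both libraries of one group had at least 10 counts. Alternatives were DESeq2 1.42.0, RLE and total-count scaling, no filter, fewer groups, a block by cell line and leaving out each library. The code was tested on simulated counts.

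Groups came from the sample titles. The parental line and clone 54 are replicate 1 of their groups; vCas9 and clone 69 are replicate 2. The same line in both hosts gives the pairing. The difference between the 2 lines of a genotype in NSG correlated across genes with that in Balb/c with r of 0.081 for wild type and -0.384 for knockout. Replicate libraries differed by more than sampling noise, with chi-square values per degree of freedom from 18.1 to 115. The 9 genes, the 18 lists and the naming rule (the 9 genes, fixed examples from each list, and the genes most like the 9) were chosen with earlier results of these data known. The 12 immunoglobulin constant genes and 4 of 7 gamma delta T cell genes were not analysed here. A few genes that the naming rule selects are not reported here.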

Additional observations from a re-analysis of the deposited data

How the results depend on the processing

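Scaling by total counts or RLE factors, dropping the filter, DESeq2 and the fit of only the groups compared kept 9 of 9 calls for the host comparison in wild-type tumors, and the cell line as a replicate block kept 7. Leaving out 1 library gave 3 to 9, with 858 to 6361 genes called in all against 4825. In knockout tumors 2 passed, against 4 with only the groups compared, 3 each with the replicate block, DESeq2 and no filter, and 0 to 5 on leaving out 1 library, with 2461 to 4640 genes called in all against 4757. The crossed replicate block, which swaps the clone numbers between hosts and was added after seeing the data, gave 4 there, 9 in wild type and 0 for the difference between hosts. It called 5436 genes in all in knockout tumors and 5733 in wild type. With only the groups compared, 2450 genes in all were called in knockout tumors and 6838 in wild type. For knockout against wild type in Balb/c, where 0 passed, RLE factors gave 1, no filter 8, DESeq2 8 and leaving out 1 library 0 to 7. For the difference between hosts, with 0, no filter and DESeq2 gave 4 each and leaving out 1 library 0 to 2. For knockout against wild type in NSG each setting run gave 0. The cause of these differences was not tested. Among the 9 genes the block changed no call beyond those named here and in the report, and its calls were not counted over the marker lists.

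Signs turned in the host difference of knockout tumors for *Cr2* (-0.001) and *Cxcr5* (-0.153) under total-count scaling and for *Cxcr5* (-0.009) with the replicate block. On leaving out 1 library the ranges were -0.33 to 1.12 for *Cr2* and -0.56 to 0.50 for *Cxcr5* there, -2.69 to 0.13 for *Cd79b* in the Balb/c knockout effect and -0.75 to 0.11 for *Cxcr5* in NSG. Over all genes, those called in the Balb/c knockout effect went from 27 to 94 with RLE factors, 1774 without the filter, 2144 with DESeq2, 0 with only the groups compared and 0 to 3886 on leaving out 1 library. In the host comparisons they went from 4825 to 2073 in wild type and from 4757 to 2878 in knockout with the replicate block. Total-count scaling moved the all-gene median from -0.079 to -0.236 (log2) in wild type and from 0.022 to -0.169 in knockout. Depth limits the NSG values of the genes other than *Cxcr5*, which held at most 17 counts there.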
